A study of Homo sapiens with 4 samples.

Results

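SR proteins are splicing factors that carry RNA recognition motifs and a domain rich in arginine and serine, through which they bring the U1 and U2 particles to weak splice sites and define exons. Kinases of the CLK and SRPK families phosphorylate this domain, and CLK1, a dual-specificity kinase of the nucleus, releases SR proteins from nuclear speckles. Many SR genes hold a poison exon whose inclusion sends the transcript to nonsense-mediated decay, and CLK1 transcripts with retained introns are kept in the nucleus, from where they can be spliced after heat and other stress. The 9 genes SRSF1, SRSF2, SRSF3, SRSF4, SRSF5, SRSF6, SRSF7, SRSF10 and SRSF11 and the gene CLK1 were taken by symbol from the deposited table, which gave 10 of 61806 genes. Their counts were compared between control cells and cells given CPYPP, as a readout of splicing stress at the level of whole genes.

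RNA with a poly(A) tail had been sequenced from MDA-MB-231, a human breast cancer line, and from MDA-MB-435, which the labels call melanoma cells. Each line was wild type and was sequenced once as a control and once after CPYPP, an inhibitor of DOCK proteins, given for 6 h according to the labels and at 10 µM according to the treatment protocol. The growth and treatment protocols mention MDA-MB-435 alone, also for the MDA-MB-231 samples. The labels give neither the vehicle nor the duration of the control cultures. With 1 library per condition there was no replicate, and the difference between 2 libraries of a line cannot be told apart from the difference between cultures.

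The 4 libraries held between 17196385 and 22663954 counts, and both CPYPP libraries were the shallower of their line. Some of the lineage markers separated the lines as labelled and others did not. The Schwann and melanocyte lineage gene S100B had 0 counts in both MDA-MB-231 libraries against 1055 and 761 in MDA-MB-435, and DCT, a pigment cell enzyme, had 1 and 3 counts against 658 and 464. SOX10, a melanocyte lineage regulator, had 0 and 1 counts against 3031 and 707. The keratin KRT7 had 14488 and 8719 counts in MDA-MB-231 against 625 and 391 in MDA-MB-435. Of the other genes picked as breast line markers, CAV1, KRT81 and AXL also had more control counts in MDA-MB-231. The rest went the other way, with control counts of 27537 against 36689 for CD44, 23823 against 27781 for MSN, 6117 against 11023 for FOSL1 and 918 against 1911 for LIF. TYR, which encodes the enzyme that makes melanin, had at most 3 counts in any library, so that this pigment marker was near 0 also in the line labelled melanoma. The melanosome genes PMEL, with 34 and 29 counts in MDA-MB-231 against 13 and 4, and MLANA, with 8 and 14 against 9 and 14, were low in both lines. MITF, the melanocyte regulator, had 1585 and 690 counts in MDA-MB-231 against 1405 and 809, and so did not separate them.

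The promoters of CLK1, of SRSF3 and of SRSF6 are shown because CLK1 was the member that changed most, SRSF3 the SRSF gene with the most reads and SRSF6 the SRSF gene with the widest difference between the lines. Each line holds the 250 bases before the start of transcription from RefSeq on GRCh38.p14, 5′ to 3′ on the strand of the gene, with the matches to the motifs named below in capitals. CLK1 lies on the minus strand at chr2:200864659-200864908, SRSF3 on the plus strand at chr6:36594112-36594361 and SRSF6 on the plus strand at chr20:43457646-43457895.
CLK1: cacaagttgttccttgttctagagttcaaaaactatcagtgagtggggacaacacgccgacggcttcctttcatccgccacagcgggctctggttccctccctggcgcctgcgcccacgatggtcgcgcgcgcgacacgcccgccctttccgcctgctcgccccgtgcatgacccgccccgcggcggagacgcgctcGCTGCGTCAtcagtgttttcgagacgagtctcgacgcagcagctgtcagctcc
SRSF3: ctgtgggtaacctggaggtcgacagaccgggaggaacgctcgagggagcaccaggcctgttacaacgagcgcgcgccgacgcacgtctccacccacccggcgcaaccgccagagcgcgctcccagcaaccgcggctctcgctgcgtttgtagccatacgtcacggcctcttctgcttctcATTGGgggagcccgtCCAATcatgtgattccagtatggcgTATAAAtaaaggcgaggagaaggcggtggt
SRSF6: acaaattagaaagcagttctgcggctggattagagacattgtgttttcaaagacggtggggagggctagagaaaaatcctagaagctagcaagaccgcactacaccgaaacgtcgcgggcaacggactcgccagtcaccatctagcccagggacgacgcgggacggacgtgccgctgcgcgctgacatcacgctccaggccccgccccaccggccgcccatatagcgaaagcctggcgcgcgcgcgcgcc

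Windows of 250 bases before and 50 bases after a start were on hand for 9 of the 10 members, 12 windows in all. Neither heat shock element core, GAANNTTC or TTCNNGAA, nor the cyclic AMP element TGACGTCA was found on either strand in any of the 12, while 6.77%, 7.74% and 1.85% of all 35116 windows held them. At such shares an absence from 12 windows says little. The antioxidant element core TGACNNNGC stood in 4 of the 12 windows, against 13.3% of all windows. These were both windows of CLK1, which overlap, and windows of SRSF5 and SRSF1. In the sequence above this core is the capital run of CLK1, read on the other strand. The TATA box TATAAA stood in windows of SRSF11, SRSF7 and SRSF3, against 11.5%. A CCAAT box, CCAAT, was found in SRSF3, against 34.6% of all windows, and SRSF3 thus shows 3 capital runs, of which the first is the CCAAT box read on the other strand. No capital run of a printed sequence overlaps another. These matches describe letters in a window and nothing about binding, which was not measured.

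CLK1 (ENSG00000013441, chr2:200853009-200864691 on GRCh38, minus strand) was higher after CPYPP in both lines. It had 1810 counts in the MDA-MB-231 control and 1700 in the shallower MDA-MB-231 CPYPP library, and 1748 in the MDA-MB-435 control against 3734 in the MDA-MB-435 CPYPP library. The MDA-MB-435 CPYPP library thus stood above the other 3, which lay close together. Counts were divided by library sizes corrected with TMM, a trimmed mean over genes computed by edgeR on the 2 libraries of a line, and the fold change, CPYPP over control, was 1.28 in MDA-MB-231 (95% exact binomial interval, Clopper-Pearson, 1.20 to 1.37) and 2.75 in MDA-MB-435 (2.60 to 2.92). These intervals cover counting error only. On the log2 scale the change in MDA-MB-435 exceeded that in MDA-MB-231 by 1.10, with a counting interval of 0.98 to 1.23. Among 5397 genes with at least 1000 counts in 1 of the MDA-MB-435 libraries, 63 had a larger fold change than CLK1, and in MDA-MB-231 758 of 5160 did. Of 4304 genes with that many counts in both lines, 17 had a larger difference between the lines than CLK1.

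**Figure D1:**
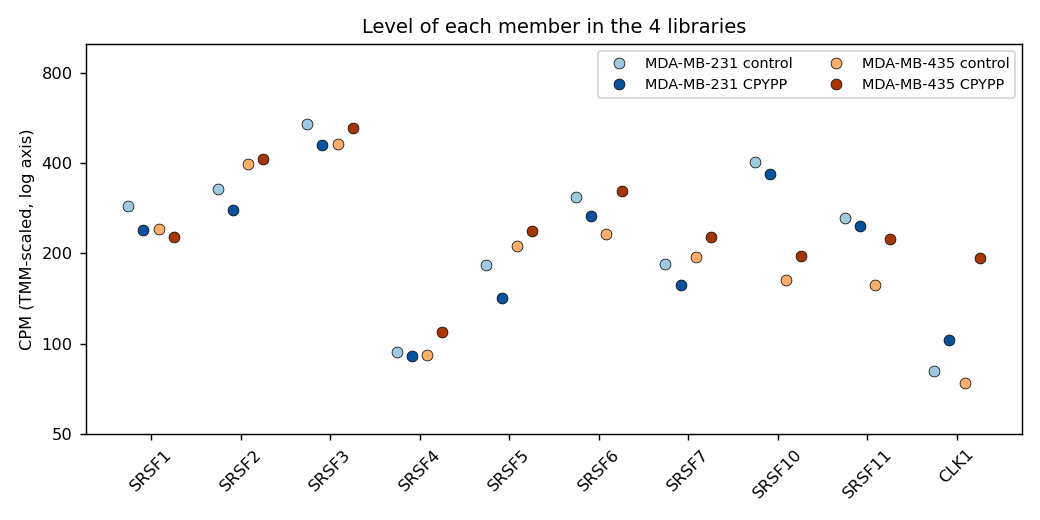
Points give the level of each member in CPM, the counts scaled to a library size of 1e6 with TMM over the 4 libraries (log axis), 1 point per library. CLK1 lies at 73.8 CPM in the MDA-MB-435 control and at 192.9 CPM after CPYPP, while the 2 levels of each SRSF gene in a line lie closer together.

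The common effect of CPYPP over both lines was fitted with edgeR's quasi-likelihood test on all 4 libraries with the cell line as a blocking term. The lines therefore stand in for replicates. A gene's error starts from the disagreement between them, which edgeR moves toward the trend over all genes. Of the 10 members, all tested, CLK1 alone passed at an adjusted p under 0.05. Its common log2 fold change was 0.87 ± 0.20 (SE), with edgeR's adjusted p = 0.027. Of 16801 genes tested, 4.39% were called higher and 2.85% lower, and 1 of 10 members was called higher. No member was called lower by edgeR, by DESeq2 or by limma-voom, and 0 members were lower at an unadjusted p under 0.05 in this edgeR fit. With total counts 2 members had an unadjusted p under 0.05 in edgeR. SRSF1, at a log2 fold change of -0.24, then had the smallest adjusted p after CLK1 (0.19). DESeq2 gave CLK1 an adjusted p of 0.057 and limma-voom one of 0.035, so the call does not hold with every tool.

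In MDA-MB-231 the SRSF genes lay on the other side of the control from CLK1. All 9 had a fold change under 1 there, from 0.782 for SRSF5 to 0.982 for SRSF4, and for 8 of them the counting interval lay wholly below 1. Among genes with at least 1000 counts in that line, 32.4% had an interval wholly below 1 and 40.2% wholly above. The median log2 fold change was -0.22 over the 9 SRSF genes and 0.02 over those genes. None of the 9 passed 1.5-fold in MDA-MB-231, where 11.9% of 16441 genes with at least 10 counts in 1 library were lower and 12.4% higher by more than that, and 5.43% and 5.40% by more than 2-fold, the study's own limit. Those shares come largely from genes with few reads. With at least 1000 counts 3.16% were lower and 6.32% higher by more than 1.5-fold.

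MDA-MB-435 showed the opposite picture. SRSF1 stayed at a fold change of 0.993 (0.955 to 1.03), and the other 8 SRSF genes lay above 1, from 1.09 for SRSF2 to 1.49 for SRSF11, each with a counting interval wholly above 1. Of genes with at least 1000 counts in this line 51.6% had such an interval and 25.6% had one wholly below 1, so an interval above 1 was common among well-counted genes. The median log2 fold change was 0.30 over the 9 SRSF genes and 0.10 over those genes. CLK1 was the 1 member past 1.5-fold and past 2-fold in MDA-MB-435. Over all 16527 genes tested in that line 10.9% were higher and 18.3% lower by more than 1.5-fold, and 4.02% and 9.75% by more than 2-fold, while with at least 1000 counts 2.96% were higher by more than 2-fold.

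**Figure D2:**
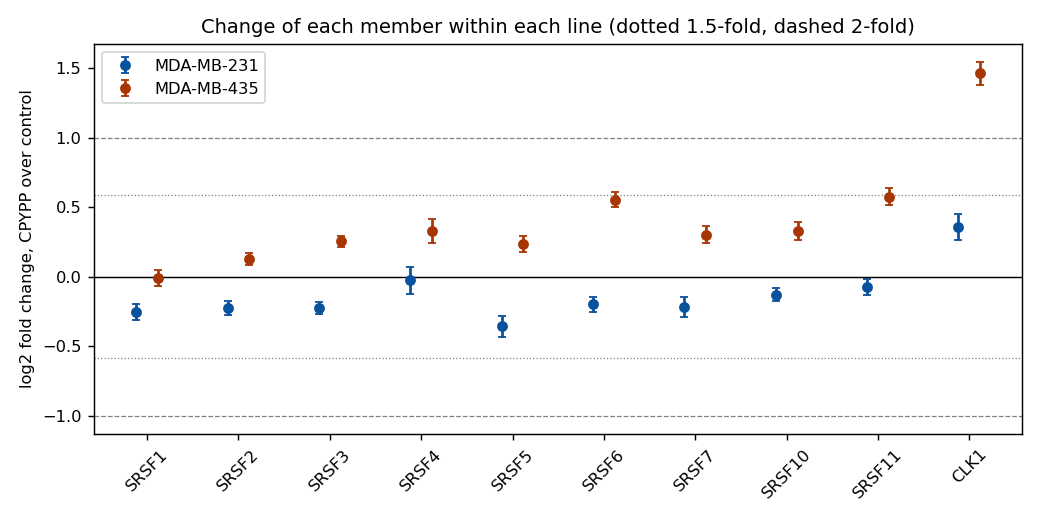
Log2 fold change, CPYPP over control, of each member in MDA-MB-231 (blue) and MDA-MB-435 (brown), with bars for the 95% counting interval and lines at 1.5-fold and 2-fold. Every member lies higher in MDA-MB-435 than in MDA-MB-231, and CLK1 alone crosses the 2-fold line.

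For all 10 members the change in MDA-MB-435 exceeded that in MDA-MB-231, and for all 10 the counting interval of the difference lay above 0, as it did for 46.6% of the 4304 genes with at least 1000 counts in both lines. The differences of the SRSF genes ran from 0.25 for SRSF1 to 0.75 for SRSF6 on the log2 scale with a median of 0.48, against a median of 0.10 over the 4304. Opposite directions, below the control in MDA-MB-231 with a value above it in MDA-MB-435, were seen for 8 of the 9 SRSF genes and for 21.4% of those 4304. They were not particular to the SRSF genes. In the lists of related genes described below 60 of 143 showed them, from 1 of 14 kinases to 15 of 27 hnRNP and 6 of 7 Sm core proteins. The difference was not tested, since each line had 1 pair of libraries. In RNA from whole cultures, fewer cells of a kind and less RNA per cell cannot be told apart.

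**Figure D3:**
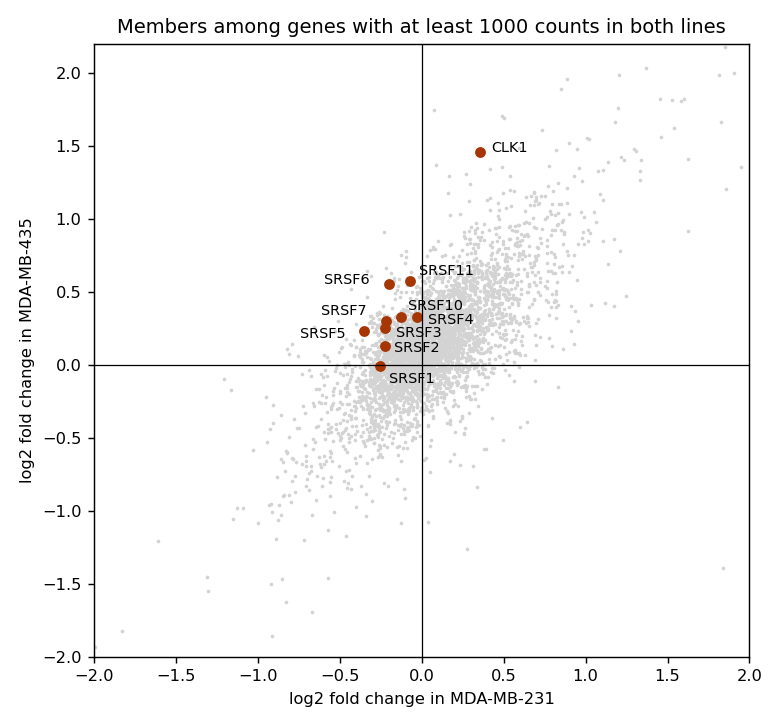
Log2 fold change in MDA-MB-231 against that in MDA-MB-435 for 4304 genes with at least 1000 counts in both lines (grey), with the 10 members in brown and axes that leave out 25 genes. The 8 SRSF genes with opposite directions sit at the upper left, SRSF1 just below 0, and CLK1 at 0.36 and 1.46.

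SRSF1, SRSF2 and SRSF3 are the classic members that act on constitutive and alternative exons. SRSF1, a factor of exon definition that also serves in export and decay, had 6459 control and 3966 CPYPP counts in MDA-MB-231, against 5708 and 4397 in MDA-MB-435, and pairs of counts are given in this order from here on. Its common log2 fold change of -0.18 ± 0.11 was the lowest of the members and did not pass (edgeR adjusted p = 0.42). SRSF2, the speckle protein SC35, went from 7367 to 4623 counts in MDA-MB-231 and from 9453 to 8012 in MDA-MB-435. After scaling these are fold changes of 0.856 (0.825 to 0.889) and 1.09 (1.06 to 1.13), below and above the control level. SRSF3, which also adapts mRNA to the export receptor NXF1, counted 12131 and 7617 reads in MDA-MB-231, against 10975 and 10155 in MDA-MB-435. Its fold changes were 0.857 (0.833 to 0.882) and 1.19 (1.16 to 1.23), and the common log2 fold change of -0.027 ± 0.13 did not pass (edgeR adjusted p = 0.94).

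SRSF4, SRSF5 and SRSF6 carry a second, degenerate RNA recognition motif and are close relatives. SRSF4 was the least counted SRSF member, with 2096 and 1508 counts in MDA-MB-231, against 2170 and 2111 in MDA-MB-435. It was the SRSF gene whose interval in MDA-MB-231 included 1, at a fold change of 0.982 (0.918 to 1.05), and in MDA-MB-435 it reached 1.25 (1.18 to 1.33). SRSF5 showed the lowest fold change of any member in MDA-MB-231, where it went from 4112 to 2356 counts, or 0.782-fold (0.743 to 0.823). In MDA-MB-435 its counts were 5028 and 4587, a fold change of 1.18 (1.13 to 1.22). SRSF6 had 6913 and 4417 counts in MDA-MB-231, against 5483 and 6239 in MDA-MB-435, 1 of 3 members, with SRSF11 and CLK1, whose raw count was higher in the shallower MDA-MB-435 CPYPP library. The fold changes of SRSF6 were 0.872 (0.840 to 0.906) and 1.47 (1.41 to 1.52), the widest gap between the lines among the SRSF genes.

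SRSF7, a zinc knuckle protein that shares the export role of SRSF3, went from 4118 to 2593 counts in MDA-MB-231 and from 4605 to 4408 in MDA-MB-435. Its fold changes of 0.859 (0.818 to 0.903) and 1.23 (1.18 to 1.29) cancelled in the common fit, at a log2 value of 0.00079 ± 0.13. SRSF10 acts as a repressor of splicing once it is dephosphorylated, as in heat shock. It had 9069 and 6081 counts in MDA-MB-231 but 3877 and 3781 in MDA-MB-435, with fold changes of 0.915 (0.886 to 0.946) and 1.26 (1.20 to 1.32). SRSF11, a less typical SR protein, had 5874 and 4095 counts in MDA-MB-231, against 3728 and 4312 in MDA-MB-435. It was nearly level in the first line at 0.952 (0.914 to 0.990) and highest of the SRSF genes in the second at 1.49 (1.43 to 1.56), and its common log2 fold change of 0.21 ± 0.14 (edgeR adjusted p = 0.46) was the largest among them. Adjusted p-values of the 9 SRSF genes in the common fit lay between 0.42 and 1.00 (0.998 for SRSF7).

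Summed over the 9 SRSF genes, reads made up 0.260% of all counts in the MDA-MB-231 control (exact binomial interval 0.258% to 0.262%) against 0.217% (0.214% to 0.219%) in the treated cells. The share in MDA-MB-435 was 0.225% (0.223% to 0.227%) in the control and 0.246% (0.244% to 0.249%) with the inhibitor. These shares amount to scaling by total counts, and were lower than the control in the first line and higher in the second. CLK1 set against the same SRSF sum needs no scaling between libraries. For every 100 SRSF counts there were 3.11 CLK1 counts in the MDA-MB-231 control and 4.56 after CPYPP, and 3.43 and 7.78 in MDA-MB-435. After CPYPP the ratio of CLK1 to the SRSF genes was thus 1.47 times the control value in MDA-MB-231 (counting interval 1.37 to 1.57) and 2.27 times in MDA-MB-435 (2.14 to 2.41).

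The direction of SRSF2 in MDA-MB-435 depended on the scaling. TMM per line, TMM over the 4 libraries, DESeq2 size factors and the upper quartile left 8 SRSF genes above 1 in that line, and total counts left 7. Total counts and the upper quartile lowered all log2 changes of MDA-MB-435 by 0.15 and 0.11, and the median over all genes tested went from -0.015 to -0.16 and -0.13. The SRSF median was then 0.15 and 0.19, still above the median of genes with at least 1000 counts, which was -0.048 and -0.010. In MDA-MB-231 all 9 SRSF genes lay under 1 with every scaling, with medians between -0.29 and -0.22.

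**Figure D4:**
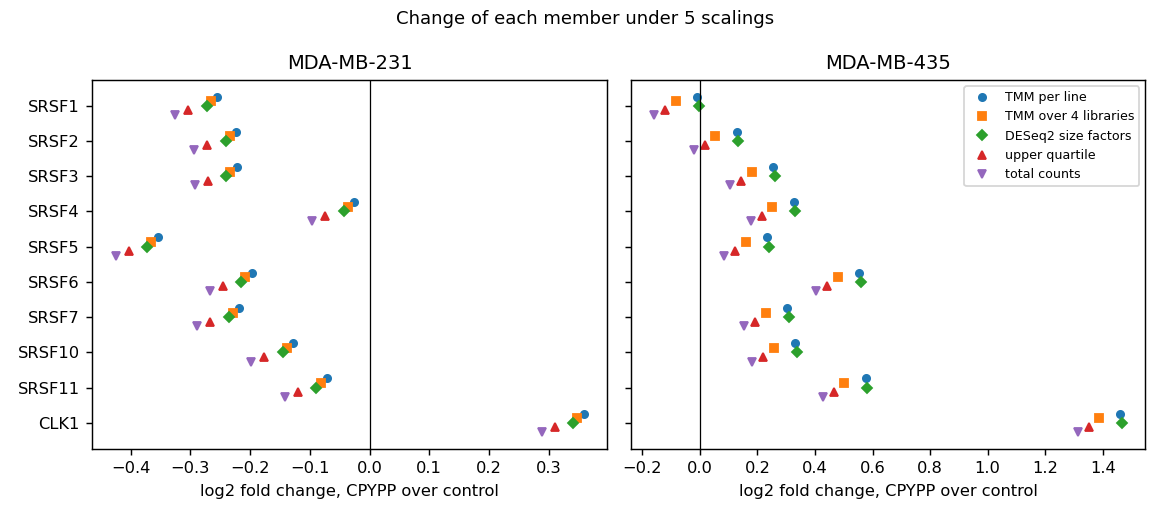
Log2 fold change, CPYPP over control, of each member in MDA-MB-231 (left) and MDA-MB-435 (right) under 5 scalings, 1 symbol each. The spread of the symbols of a gene is small against the CLK1 change, and in MDA-MB-435 SRSF2 crosses 0 with total counts.

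Levels between genes were compared per length of exons, as TPM, counts over exon length scaled to the same sum in every library. SRSF2 was highest in all 4 libraries, at 439 and 383 TPM in MDA-MB-231 and 552 and 568 TPM in MDA-MB-435, and SRSF3 was second in all 4, between 264 and 302 TPM. SRSF4 was lowest in all 4, between 42.2 and 50.6 TPM. Between them the order of neighbours changed from library to library, as for SRSF5 and SRSF10, which stood at 136.2 and 135.6 TPM in the MDA-MB-231 control, and with 1 library per condition no spread is known by which to separate neighbours. CLK1 ranked 9th of the 10 members in both MDA-MB-231 libraries, at 62.7 and 81.8 TPM, and went from 8th at 59.3 TPM to 7th at 153.9 TPM in MDA-MB-435. Exon length counts every annotated exon, so genes with long annotated isoforms such as SRSF10 appear lower per length than by counts.

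The lines differed before treatment. SRSF10 was 2.47-fold (counting interval 2.38 to 2.57) and SRSF11 1.67-fold (1.60 to 1.74) higher in the MDA-MB-231 control than in the MDA-MB-435 control by CPM, while SRSF2 stood at 0.824-fold (0.800 to 0.850). SRSF4 did not differ beyond counting error, at 1.02-fold (0.962 to 1.09). CLK1 was at 1.10-fold (1.03 to 1.17), so its control levels were near each other. These are values of 1 library per line with no test.

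All 10 members have at least 1 transcript annotated to nonsense-mediated decay in GENCODE v29, as do 35.8% of 19838 protein-coding genes. SRSF7 has 6 such transcripts, the most of the members, and CLK1 has 2 together with 8 annotated with a retained intron. A count per gene adds these transcripts to the productive ones, so the values above do not say which isoform changed, and exon counts were not analysed here. SRSF2 overlaps MFSD11 on the other strand, whose own counts were 306 and 263 in MDA-MB-231, against 1039 and 925 in MDA-MB-435, and the strand setting of the counting is not given in the sources used here. The 13 copies of members listed under pseudogene symbols held at most 11 counts in any library, although reads of a near-identical copy can also have been left uncounted.

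CLK1 was then set beside 14 other kinases, a list chosen with earlier results of these data known. It holds the remaining CLK genes and the SRPK genes, and also the DYRK and HIPK genes and PRPF4B. Whether all of these act on SR proteins was not examined here. Among the CLK and SRPK genes CLK1 was the 1 called in the edgeR fit reported here. Other edgeR settings also called CLK2 lower, as with total counts (adjusted p = 0.016), while DESeq2 and limma-voom did not. CLK2 had 558 and 289 counts in MDA-MB-231, against 373 and 185 in MDA-MB-435, fold changes of 0.707 (0.611 to 0.816) and 0.640 (0.533 to 0.765), and a common log2 fold change of -0.61 ± 0.17 that did not pass (edgeR adjusted p = 0.063, unadjusted p = 0.0054). CLK3 had fold changes of 1.14 and 0.994, and CLK4 had 0.872 and 0.985. SRPK1, a kinase of the cytoplasm that primes SR proteins for import, stood at 1.06 and 1.10, SRPK2 at 1.16 and 1.21, and SRPK3, with at most 39 counts, at 0.894 and 0.827. The homeodomain-interacting kinases HIPK3 (common log2 fold change 0.83 ± 0.11, edgeR adjusted p = 0.0021) and HIPK1 (0.49 ± 0.12, adjusted p = 0.029) were called higher. The 14 kinases had a median common log2 fold change of 0.13, against -0.042 over all genes tested.

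Of the other SR proteins, 4 of 5 could be tested and none was called. TRA2B, a splicing activator related to the SR family, went from 5711 to 4895 counts in MDA-MB-231 and from 7560 to 9857 in MDA-MB-435, fold changes of 1.17 (1.13 to 1.22) and 1.68 (1.63 to 1.73), and a common log2 fold change of 0.45 ± 0.13 (edgeR adjusted p = 0.067). Its relative TRA2A had fold changes of 0.998 and 1.53. Like CLK1, TRA2B thus lay above 1 in both lines. SRSF8 lay under 1 in both, at 0.815 and 0.793, SRSF9 stood at 0.905 and 1.04, and SRSF12 had 0 counts in 3 libraries and 1 in the MDA-MB-231 CPYPP library.

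Around the SR proteins, 8 of 143 tested genes in 9 lists were called higher and 0 lower by edgeR, with 20 higher and 3 lower at an unadjusted p under 0.05. The 8 are 5.59% of the tested list genes, near the 4.39% of all genes called higher. The 20 and 3 are 14.0% and 2.10%, where 10.7% and 10.4% of all genes were higher and lower at that p. DESeq2 called 9 higher and 0 lower and limma-voom 9 and 0. Of the 25 coactivators with arginine and serine repeats, 3 were called higher, namely SCAF4 (common log2 fold change 0.77 ± 0.12), a factor that binds the tail of RNA polymerase II and prevents early termination, RSRC2 (0.56 ± 0.13) and SCAF11 (0.44 ± 0.11). Of the 7 genes of import and dephosphorylation, 1 was called higher, TNPO1 (0.64 ± 0.11), an import receptor, with 11056 and 12235 counts in MDA-MB-231, against 6843 and 9046 in MDA-MB-435. TNPO3, the import receptor of SR proteins, had a common log2 fold change of 0.28 ± 0.11 and did not pass (edgeR adjusted p = 0.17). Of the 15 genes of the exon junction and of decay, 2 were called higher, the kinase of nonsense-mediated decay SMG1 (0.76 ± 0.12) and its partner UPF2 (0.52 ± 0.12), and the list's median was 0.18.

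The lists of hnRNP proteins and of spliceosome components held no called gene. Of all genes tested, 4.39% were called higher and 2.85% lower. Under some other edgeR settings the hnRNP gene SYNCRIP was called lower, as with total counts (adjusted p = 0.0095). Among 27 hnRNP proteins, which often act against SR proteins, 0 were called by edgeR, with 1 higher and 1 lower at an unadjusted p under 0.05, and the median common log2 fold change was -0.082. In MDA-MB-231 19 of the 27 had a counting interval wholly below 1 and in MDA-MB-435 17 had one wholly above 1, beside 8 and 8 of the 9 SRSF genes. Of all genes with at least 1000 counts in the line, 32.4% and 51.6% had such intervals. The 22 proteins of the U1 and U2 particles had a median of -0.0058 with 0 called and 1 higher at an unadjusted p under 0.05. For the 7 Sm core proteins the median was -0.033, with 0 called and 0 at an unadjusted p under 0.05, and for the 22 tri-snRNP proteins it was -0.029, with 0 called and 1 higher at that p.

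**Figure D5:**
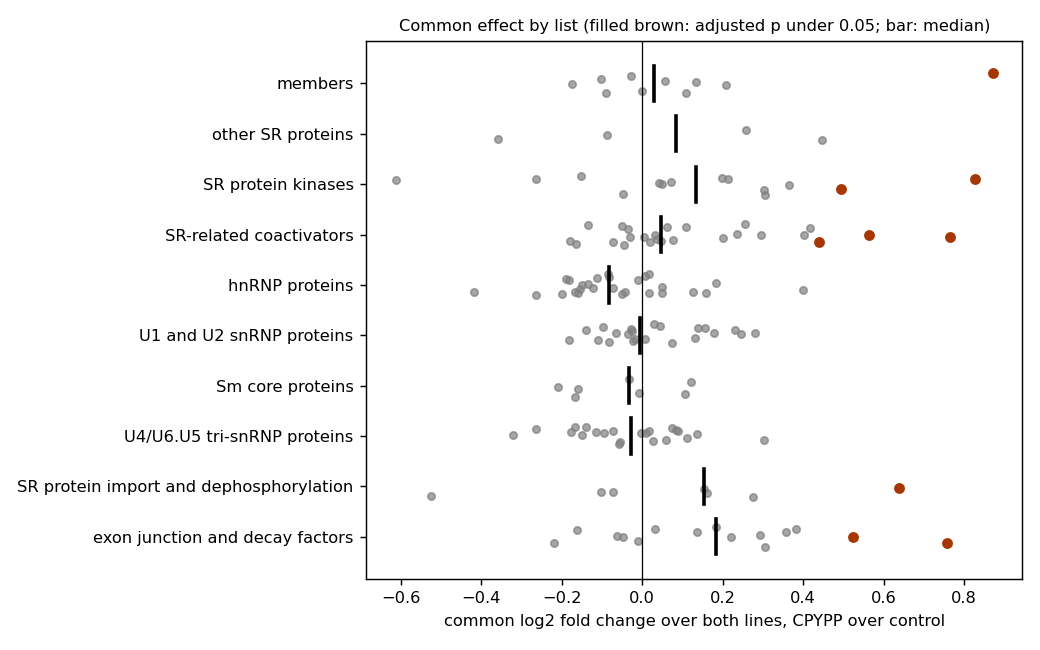
Common log2 fold change over both lines of each tested gene, by list, with brown points for an adjusted p under 0.05 and a bar at each median. The 9 SRSF genes lie between -0.18 and 0.21 around 0, and CLK1 stands at 0.87 with 8 called genes of the other lists, all higher.

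By likeness over the 4 libraries, measured as the distance between mean-centred log2 CPM among 5610 other genes with at least 500 counts in every library, the genes nearest to CLK1 were PELO (distance 0.17), PACC1 (0.21) and ZNF654 (0.26). PELO, a factor that rescues stalled ribosomes, had 1053 and 1032 counts in MDA-MB-231, against 1195 and 2348 in MDA-MB-435. Nearest to SRSF11 were RBM5 (0.073), EZH2 (0.10) and IER3IP1 (0.10), all of which, like SRSF11, were close to level in MDA-MB-231 and higher in MDA-MB-435. A likeness over 4 libraries is a description with no test.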

How the data were processed

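The authors deposited raw read counts per gene for 4 libraries, with exon lengths, gene positions and annotation, and no normalization. The submitters' processing notes list cutadapt 1.9.1, HISAT2 2.2.1, HTSeq 0.6.1, DESeq2 and the build GRCh37.p13, but of 58254 identifiers shared with GENCODE v29 on GRCh38, 58241 have an overlapping position, so the printed positions are those of GRCh38. Annotation version and strand setting are not given in the sources used here. No column of per-sample values was left out.

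Folds within a line were ratios of counts over TMM effective library sizes of its 2 libraries, for genes with at least 10 counts in 1 of them, with 95% exact binomial intervals. Such intervals cover counting error only. A count under 3 was raised to 3 before a log ratio was formed. Intervals of a difference between lines or of a ratio to the summed SRSF counts used the normal approximation on the log scale. The common effect was fitted in R 4.3.3 with edgeR 4.0.16 (glmQLFit and glmQLFTest, filterByExpr, the line as a block, Benjamini-Hochberg adjustment at 0.05), with DESeq2 1.42.0 and limma 3.58.1 as alternatives. Its 1 residual degree of freedom per gene is the disagreement of the lines, which the fit moved toward a trend over all genes. Its p-values therefore measure neither the spread between cultures nor a gene's own disagreement between the lines alone. Each SE is the absolute log2 fold change over the square root of the test's F value. The common dispersion was 0.0146. On simulated counts of 16801 genes with a dispersion like the fitted one, this fit recovered 76.1% of genes changed 2-fold and 97.8% of those changed 4-fold, with 7 false calls, which does not test whether the lines can stand in for replicates. Intervals came from scipy 1.17.1 and plots from matplotlib 3.10.9, on tables read by pandas 2.3.3 and numpy 2.4.6 in Python 3.11.15.

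Named were all members, the other SR proteins, the CLK and SRPK genes, at most 3 called genes with the largest common change in each further list, and the 3 genes most like CLK1 and SRSF11. TNPO3, SYNCRIP, PPP1R10 and the marker genes were named outside this rule, after their values had been seen. Members and lists were chosen with earlier results of these data known. TMM over 4 libraries was added as a scaling after the data had been seen.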

Additional observations from a re-analysis of the deposited data

Results flagged for a closer look

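For 8 SRSF genes the CPYPP library was below the control in MDA-MB-231 and above it in MDA-MB-435, which is why they are listed here. The same directions were seen for 21.4% of the 4304 genes with at least 1000 counts in both lines. In the lists around the SR proteins 60 of 143 genes, among them 6 of 7 Sm core proteins, had them. The difference was not tested, since each line had 1 library per condition. On the log2 scale, MDA-MB-435 minus MDA-MB-231, it was 0.35 for SRSF2, 0.48 for SRSF3, 0.35 for SRSF4, 0.59 for SRSF5, 0.75 for SRSF6, 0.52 for SRSF7, 0.46 for SRSF10 and 0.65 for SRSF11. With total counts 7 of them had opposite directions, as SRSF2 was then lower in both lines, and with the other scalings tried all 8 did. SRSF4 in MDA-MB-231 had a counting interval that included no change.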

How the results depend on the processing

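Each condition had 1 library, so no library could be left out. The common effect pairs control and CPYPP by line, and no further pairing was possible because the labels give no replicate numbers. The counts of members past 1.5-fold and 2-fold in each line were the same under total counts, DESeq2 size factors, the upper quartile, TMM over the 4 libraries, the stricter minimum and the nearer bound of the interval. CLK1, called higher in the common effect, was the 1 member called by edgeR under 5 other settings and by limma-voom, with adjusted p-values between 3.5e-08 and 0.035, but 0 members were called higher by DESeq2 and 0 without the line as a block, where the adjusted p was 0.057 and 1.00. In the lists around the SR proteins 0 genes were called higher without the block, where edgeR called no gene at all and the difference between the lines entered the error. Lower calls in these lists came to 2 with total counts and with the upper quartile and 2 with protein-coding genes alone (CLK2 and SYNCRIP each time), 1 with DESeq2 size factors in edgeR (CLK2) and 3 without the filter on low counts (CLK2, SYNCRIP and PPP1R10). The common log2 fold change of SRSF7 turned to -0.066 with total counts, -0.035 with the upper quartile and -0.014 with protein-coding genes alone, and that of SRSF10 to -0.0097 with total counts and -0.014 without the block. None of these passed. The cause was not tested. SRSF2 held 24.3% of the summed SRSF level in the MDA-MB-231 control per length, and 12.7% by CPM without length, since its exons are the shortest. Of 80 values of single members within a line under other scalings, 36 lay outside the counting interval of the reported value. All members had at least 1508 counts in every library, so depth limits them less than the missing replicates.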
